A study of Mus musculus with 3 samples.

Results

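The enzymes that turn squalene into cholesterol were followed through 3 culture conditions of 4T1, a mouse mammary carcinoma cell line. The 9 genes were taken by name, with earlier results of these data known. In pathway order they are Sqle, Lss, Cyp51, Msmo1 (also called Sc4mol), Nsdhl, Hsd17b7, Ebp, Sc5d (also called Sc5dl) and Dhcr7. They are 9 of the 18193 named genes of the Affymetrix Mouse Genome 430 2.0 array, and every probe set annotated to a single one of them was used, 19 of the 45037 on the array. RNA from each condition was hybridised to 1 array, so the study has 3 arrays and no replicates. In the regular-medium group 4T1 cells grew in their standard medium, which per the labels is RPMI-1640 with 10% fetal bovine serum, for a time that is not given. In the conditioned-medium group they spent 1 week in MSC-CM, read here as medium conditioned by MSCs (commonly short for mesenchymal stromal cells). The co-culture cells touched MSCs for 1 week and were then separated from them. No genetic change or drug is given for any group, and the labels do not say where the MSCs came from, how the cells were separated or whether 1 clone of 4T1 was used. A signal is the MAS5 value of a probe set on a linear scale, and a gene is represented by its probe set of highest mean signal. A gene counts as measured in a comparison when it reached 149.3, the pooled 60th percentile, on at least 1 of both arrays, and as lower or higher when its signals also differed at least 2-fold. Since each group is 1 array, no difference below has a replicate error, a test or a p-value.

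Cholesterol is built from acetyl-CoA through mevalonate to squalene, a linear hydrocarbon, and the enzymes described here oxidise, fold and trim squalene into the ring-shaped sterol. Most of these enzymes sit in the membrane of the endoplasmic reticulum, and several need molecular oxygen. Their genes are classical targets of SREBP-2, a transcription factor that is released from that membrane when its sterol content drops, and dividing cells use the pathway to supply new membrane.

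All 9 genes had their lowest signal on the co-culture array, and all 9 were nearly level between the other arrays. Against regular medium 6 of the 9 were at least 2-fold lower in co-culture and none was higher, where 2.76% of the 9393 measured genes were lower and 5.81% higher. The median log2 difference of the 9 was -1.09, a median fold of 2.13, beside a median of 0.07 over all measured genes. Conditioned medium gave a median log2 difference of 0.05 for the 9, and none met the 2-fold rule in either direction, as 0.415% of 9152 measured genes did. Nsdhl stood lowest at 5.21-fold below regular medium and Ebp was nearest to level at 1.23-fold.

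**Figure D1:**
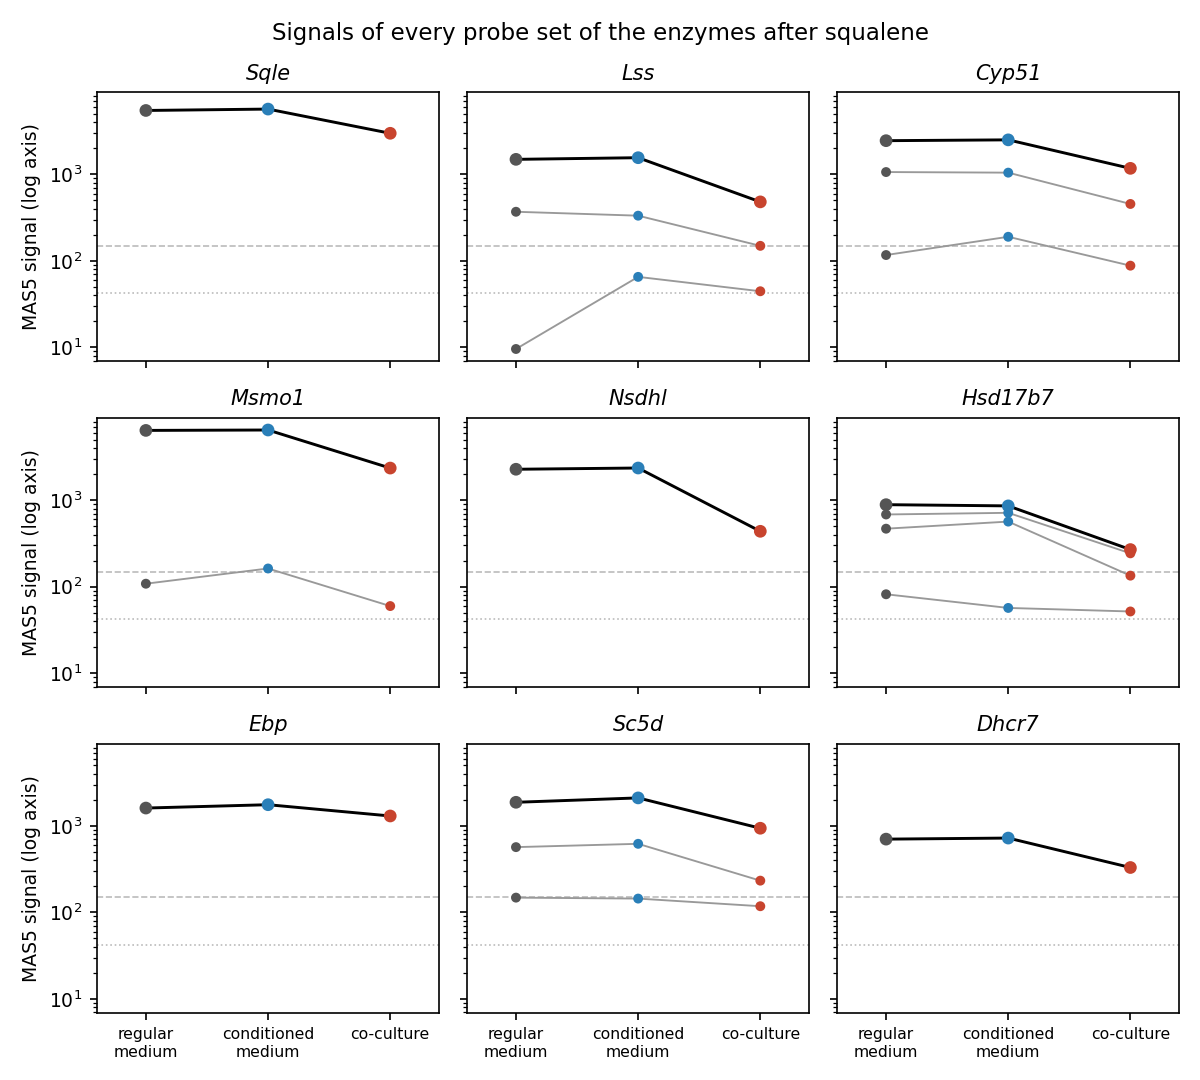
MAS5 signals (log axis) of all 19 probe sets of the 9 enzymes on the regular-medium, conditioned-medium and co-culture arrays, 1 point per array. Black lines mark the probe set that stands for the gene and grey lines its other probe sets. The dashed line is the signal of 149.3 and the dotted line the floor of 42.4. Each black line runs nearly flat from regular to conditioned medium and ends lowest in co-culture, most steeply for Nsdhl, from 2273 to 436.3.

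The pathway opens with squalene epoxidase and oxidosqualene cyclase. Sqle encodes squalene monooxygenase, the oxygen-using enzyme that commits squalene to sterols and is a control point of the pathway. Its probe set gave 5472 with regular medium, 5678 with conditioned medium and 2982 after co-culture. Co-culture was thus the low array, 1.84-fold below regular medium, which falls short of the 2-fold rule. Lss encodes lanosterol synthase, which folds the epoxide into the first sterol of the pathway. The main probe set of Lss carries the ending _s_at, which marks possible hybridisation to further transcripts. The signals of Lss were 1491 with regular medium, 1557 with conditioned medium and 480.8 after co-culture, a 3.10-fold lower value in co-culture. A further probe set of Lss read 369.6, 333.1 and 149.3 in the same order, again lowest in co-culture at 2.48-fold, and carries no such mark. The remaining Lss probe set was dim on every array, at 9.6, 65.4 and 44.6, and showed no such drop. Averaging all of its probe sets gave Lss a log2 difference of -0.96, short of the rule.

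Cyp51 encodes lanosterol demethylase, the cytochrome P450 that azole antifungals block in fungi. Its signals were 2449 with regular medium, 2504 with conditioned medium and 1173 after co-culture, and co-culture lay 2.09-fold below regular medium. Its next probe set gave 1063, 1046 and 454.9, a 2.34-fold lower co-culture signal. The dimmest one gave 116.9, 190.0 and 88.1, so that its co-culture signal was 1.33-fold below regular medium but 2.16-fold below conditioned medium. Against conditioned medium the 3 probe sets of Cyp51 lay close together, at log2 differences of -1.20, -1.11 and -1.09. The call of Cyp51 against regular medium was lost when its probe sets were averaged (-0.90) and when arrays were scaled to their medians (-0.92).

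The next enzymes, Msmo1, Nsdhl and Hsd17b7, work as a unit that strips the methyl groups from carbon C4 of the sterol ring. These 3 genes held 3 of the 4 largest differences among the 9, with Lss as the other, and their log2 differences from regular medium ran from -2.38 to -1.45. The other 6 genes ran from -1.63 to -0.30. With probe sets ending in _s_at, _x_at and _a_at left out, the C4 group held 2 of the 4 largest. No test separates these groups, which were set by the enzymes' roles.

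Msmo1 encodes the methylsterol monooxygenase that starts each round of C4 demethylation. Its main probe set gave 6389 with regular medium, 6458 with conditioned medium and 2346 after co-culture, so that co-culture was 2.72-fold lower. A dimmer probe set gave 108.2, 162.2 and 59.7, also lowest in co-culture, at 1.81-fold below regular medium. Against conditioned medium these probe sets had log2 differences of -1.46 and -1.44. The ending _a_at of the main probe set marks several transcripts of 1 gene. A setting that left out such probe sets together with those ending in _s_at or _x_at gave Msmo1 a log2 difference of -0.86 from regular medium, short of the rule, and -1.44 from conditioned medium, past it.

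Nsdhl, on the X chromosome, encodes the sterol dehydrogenase that removes the oxidised carbon, and its loss in people causes CHILD syndrome, a skin and limb disorder. It has 1 probe set, which gave 2273 with regular medium, 2350 with conditioned medium and 436.3 after co-culture. The co-culture signal was 19.2% of the regular-medium one, and only 7 of the 9393 measured genes had a more negative difference. Hsd17b7 encodes the keto reductase that ends the round and can also make oestradiol from oestrone. Its signals were 885.9 with regular medium, 857.8 with conditioned medium and 268.4 after co-culture, 3.30-fold lower in co-culture. This probe set ends in _x_at, a mark of possible cross-hybridisation, but the other bright ones, without that mark, were 2.81-fold and 3.49-fold lower, with 682.7, 713.4 and 242.8 for one and 467.6, 564.9 and 134.1 for the other. The dim probe set of Hsd17b7 gave 81.7, 56.8 and 51.7, again lowest in co-culture. Erg28, the scaffold that holds the C4 demethylation enzymes together and no member of the 9, gave 1769, 1627 and 905.0, a log2 difference of -0.97 between co-culture and regular medium that falls just short of the rule.

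The promoter windows of the C4 demethylation genes are shown because these genes stood among the lowest in co-culture, and each holds several CCAAT boxes, the letters bound by NF-Y, a factor that often acts beside SREBP. Each window is from RefSeq on build GRCm38.p6, runs from 250 bases before the annotated start of the gene to 50 bases into it and is written along the strand of the gene, with CCAAT and its reverse complement ATTGG in capitals. The Msmo1 window is chr8:64733529-64733828 on the minus strand, the Nsdhl window chrX:72918271-72918570 on the plus strand and the Hsd17b7 window chr1:169969156-169969455 on the minus strand.
Msmo1: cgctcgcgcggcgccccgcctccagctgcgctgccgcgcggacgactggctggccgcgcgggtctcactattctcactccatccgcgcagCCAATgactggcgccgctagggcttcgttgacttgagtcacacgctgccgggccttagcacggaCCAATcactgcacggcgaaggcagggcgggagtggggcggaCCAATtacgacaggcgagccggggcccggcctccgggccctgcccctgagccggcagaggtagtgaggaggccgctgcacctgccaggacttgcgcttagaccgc
Nsdhl: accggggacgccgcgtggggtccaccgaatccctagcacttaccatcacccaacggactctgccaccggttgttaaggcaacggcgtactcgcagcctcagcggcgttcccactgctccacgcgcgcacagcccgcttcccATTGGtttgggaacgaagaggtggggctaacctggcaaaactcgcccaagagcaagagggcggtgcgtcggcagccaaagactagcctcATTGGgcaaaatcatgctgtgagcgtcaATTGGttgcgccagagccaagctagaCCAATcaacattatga
Hsd17b7: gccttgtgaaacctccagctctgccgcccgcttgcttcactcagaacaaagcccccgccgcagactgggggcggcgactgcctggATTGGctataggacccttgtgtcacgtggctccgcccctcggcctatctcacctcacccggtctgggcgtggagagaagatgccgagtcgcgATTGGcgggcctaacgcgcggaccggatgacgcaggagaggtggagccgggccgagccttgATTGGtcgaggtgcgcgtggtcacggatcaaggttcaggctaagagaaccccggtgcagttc
Msmo1 holds 3 of these boxes, Nsdhl 4 and Hsd17b7 3. At least 1 such box was found for 42.3% of protein-coding genes, and the share with several was not computed. The box nearest before the start lies 55 bases before it in Msmo1, 20 in Nsdhl and 12 in Hsd17b7.

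The last enzymes shift and reduce the double bonds of the sterol. Ebp, also on the X chromosome, encodes the sterol isomerase that moves a double bond within the ring, and its loss in people causes an X-linked chondrodysplasia. The Ebp signals were 1607 with regular medium, 1757 with conditioned medium and 1302 after co-culture. Co-culture was the low array here too, but by only 1.23-fold, and 2064 of the 9393 measured genes had a more negative difference. Nsdhl and Ebp, the X-linked members, thus gave the largest and the smallest difference of the 9. The Ebp promoter window (chrX:8193463-8193762, minus strand, GRCm38.p6) is shown to set the member nearest to level beside the C4 demethylation genes, with the same letters in capitals.
Ebp: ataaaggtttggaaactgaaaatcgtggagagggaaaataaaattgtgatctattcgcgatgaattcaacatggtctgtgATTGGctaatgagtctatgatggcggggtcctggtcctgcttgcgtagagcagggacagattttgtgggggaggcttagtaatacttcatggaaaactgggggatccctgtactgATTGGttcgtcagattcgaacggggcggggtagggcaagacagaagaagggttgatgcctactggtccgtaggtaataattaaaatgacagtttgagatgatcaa
It holds 2 CCAAT boxes, the nearer one 55 bases before the start. Its GC content is 45.3%, against 70.7% for Msmo1, 59.3% for Nsdhl and 64.7% for Hsd17b7. Lss, at a log2 difference of -1.63 beside -1.45 for Msmo1, holds only 1 box in a window of 71% GC. Cyp51 and Sc5d also hold 1 box each, fewer than Ebp, at 64.7% and 68.3% GC. Dhcr7 holds 2 in its window 3, at 64% GC, and none in its other windows. A link of box number or GC content to the differences was not tested.

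Sc5d encodes the desaturase that adds a double bond to the ring. It gave 1874 with regular medium, 2106 with conditioned medium and 939.6 after co-culture. That is 1.99-fold below regular medium, just under the rule, and 2.24-fold below conditioned medium. A second bright probe set of Sc5d gave 568.4, 620.8 and 233.0, which is 2.44-fold lower in co-culture than in regular medium, and the dimmest one gave 148.3, 144.6 and 118.0. Sc5d met the rule against regular medium under quantile normalization, at a log2 difference of -1.05. Dhcr7 encodes the reductase that completes cholesterol, the enzyme missing in Smith-Lemli-Opitz syndrome. Its single probe set gave 703.2 with regular medium, 723.4 with conditioned medium and 330.5 after co-culture, and co-culture was 2.13-fold lower. Its call against regular medium was lost when arrays were scaled to their medians, at -0.95, and when the minimum signal was raised to the 80th percentile, which Dhcr7 reached on neither of these arrays.

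**Figure D2:**
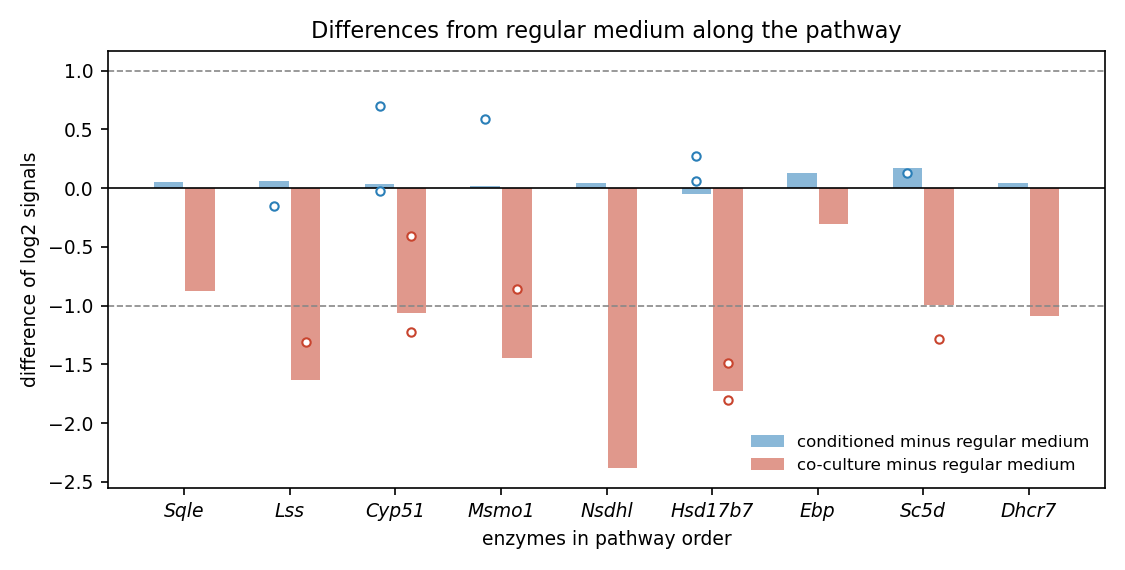
Differences of log2 signals from regular medium for the 9 enzymes in pathway order, with conditioned medium in blue and co-culture in red. Bars show the probe set that stands for the gene, open circles its other probe sets of at least 149.3 on an array, and dashed lines a 2-fold difference. Red bars reach from -0.30 for Ebp to -2.38 for Nsdhl, while blue bars stay between -0.05 and 0.17.

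Of the 19 probe sets, 16 were bright, with at least 149.3 on some array. All 16 were lower in co-culture than in regular medium, 11 of them by at least 2-fold. All 16 were also lower than in conditioned medium, 14 of them by at least 2-fold. These probe sets belong to the same 9 genes, so their counts largely repeat the gene result. No share over all bright probe sets was computed. By gene, 43.96% of all measured genes had a lower signal in co-culture than in regular medium. Against conditioned medium that share was also 43.96%. Probe sets of 1 gene share their RNA and are not replicates, but their disagreement shows how far measurements of 1 gene can differ. The span used here is the largest minus the smallest log2 difference among all bright probe sets of a gene. For the 5 members with several bright probe sets, the log2 difference between co-culture and regular medium spanned 0.29 (Sc5d) to 0.82 (Cyp51), with a median of 0.32. Over the 4561 genes with several bright probe sets the median span was 0.50 and the 90th percentile 1.32. The difference of Ebp, -0.30, is smaller than that median span, and those of the other 8 members, -0.88 or lower, are larger. Against the 90th percentile, the differences of Sqle, Sc5d, Cyp51 and Dhcr7, from -0.88 to -1.09, are smaller too. Only those of Nsdhl, Hsd17b7, Lss and Msmo1, -1.45 or lower, exceed it.

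The conditioned-medium array asks what soluble MSC products do to the cells when the MSCs themselves are absent. Between conditioned and regular medium the 9 log2 differences ran from -0.05 for Hsd17b7 to 0.17 for Sc5d, and 8 of the 9 were above 0. Each is smaller than 0.23, the median span between bright probe sets of 1 gene in this comparison. Among bright probe sets, larger values came only from ones that do not stand for their gene, at 0.70 for Cyp51, 0.58 for Msmo1 and 0.27 for Hsd17b7. Scaling the arrays to their medians put all 9 above 0, with Hsd17b7 at 0.11, and under it the median of all measured genes also stood at 0.17.

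**Figure D3:**
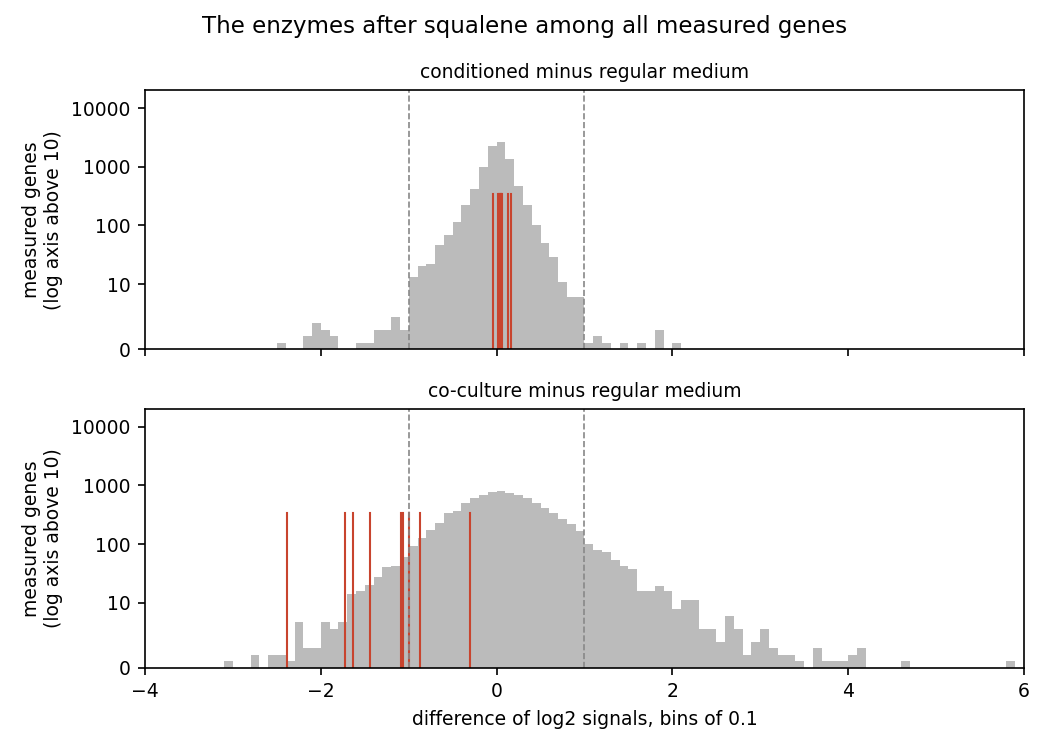
Number of measured genes (grey bars, linear up to 10 and log above) by difference of log2 signals in bins of 0.1, for conditioned medium (top) and co-culture (bottom) against regular medium. Red lines mark the 9 enzymes and dashed lines a 2-fold difference. In conditioned medium the red lines lie in the middle of the distribution, from -0.05 to 0.17, and in co-culture in its lower part, from -2.38 to -0.30.

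Co-culture was also set against conditioned medium, to place contact beside secreted factors. Both comparisons of co-culture use the same co-culture array, so they are not independent. All 9 genes were again lower in co-culture, and 7 of the 9 by at least 2-fold, where 2.60% of the 9350 measured genes were. The median log2 difference was -1.16, beside 0.07 over all measured genes. Nsdhl was 5.39-fold lower, Lss 3.24-fold, Hsd17b7 3.20-fold, Msmo1 2.75-fold, Sc5d 2.24-fold, Dhcr7 2.19-fold and Cyp51 2.13-fold. Sqle at 1.90-fold and Ebp at 1.35-fold met no rule, and Sc5d lost its call, at a log2 difference of -0.96, when probe sets were averaged. Only the co-culture cells were separated from other cells, so contact and separation cannot be told apart in either comparison.

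The other genes of sterol metabolism with values here were read from lists drawn up with the members. Of all measured genes, 2.76% were lower in co-culture than in regular medium and 5.81% higher, which is the background for each list below. In the mevalonate pathway, which supplies squalene, 6 of 8 genes were at least 2-fold lower in co-culture than in regular medium and none was higher. Their median log2 difference was -1.94, beside -1.09 for the 9 genes after squalene, and the difference between these medians was not tested. The isomerase Idi1, the farnesyl diphosphate synthase Fdps and the squalene synthase Fdft1 had log2 differences of -3.04, -2.55 and -2.21. In conditioned medium the median of the same 8 genes was -0.08.

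Lbr and Tm7sf2 encode the sterol reductases that act just after Cyp51, and Lbr is also a lamin receptor of the nuclear membrane. Lbr gave 8342 with regular medium, 8342 with conditioned medium and 4873 after co-culture, a log2 difference of -0.78 between co-culture and regular medium. Tm7sf2 gave 314.4, 300.2 and 223.8, with a difference of -0.49, and neither met the rule. None of the 5 measured electron donors and partner proteins met the rule in either direction. By the probe sets that stand for the genes, the largest differences in that list besides Erg28 were -0.56 for Cyb5a, the cytochrome that feeds electrons to Sc5d and Msmo1, and -0.31 for Pgrmc1, a haem-binding partner of cytochromes P450. Cyb5b, a further cytochrome, stood at -0.03 by its main probe set and at -1.18 and -0.77 by its other bright ones.

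Among 8 genes of SREBP control and sterol transport, 2 were lower in co-culture and none higher, and the median log2 difference was -0.19. Stard4, a sterol carrier, gave 1559 with regular medium, 1524 with conditioned medium and 449.4 after co-culture, 3.47-fold lower. Insig1, which retains the SREBP complex in the endoplasmic reticulum and is itself an SREBP target, gave 1140, 1266 and 521.1, 2.19-fold lower. Srebf1, the gene of SREBP-1, had a log2 difference of -0.86, and Srebf2, the gene of SREBP-2, -0.35 with another bright probe set at -0.75. Mbtps1, a further gene of this list, stood at 0.04 by its main probe set and at -2.14 and 0.32 by its other bright ones. Only 3 of 8 genes of sterol storage, efflux and sensing were measured, and Npc1 counts among them only through its co-culture signal. Npc1, which exports cholesterol from lysosomes, was 2.80-fold higher in co-culture, with 75.3, 132.4 and 211.1, Mylip, a ubiquitin ligase of lipoprotein receptors, had a log2 difference of -0.99, and Npc2 0.13 with other bright probe sets at 0.24 and 1.08. Of 4 measured genes of enzyme turnover, Rnf145, a ubiquitin ligase of the endoplasmic reticulum, was 2.43-fold lower and none was higher. Ube2g2, a ubiquitin-conjugating enzyme, had a log2 difference of 0.89 with another bright probe set at 0.22. Marchf6, the ubiquitin ligase that acts on squalene monooxygenase, had 0.49 with another bright probe set at -0.34.

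**Figure D4:**
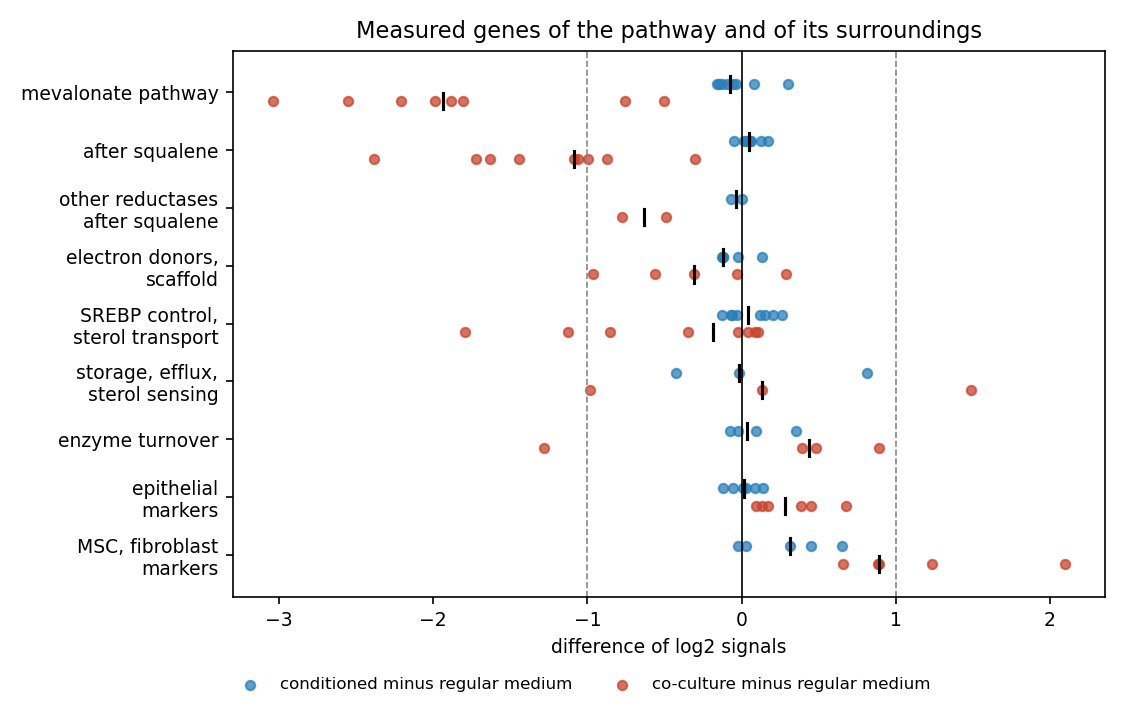
Differences of log2 signals from regular medium for the measured genes of each list, in conditioned medium (blue) and co-culture (red), 1 point per gene, with the list median as a black bar and a 2-fold difference as dashed lines. The farthest red point among the MSC and fibroblast markers, Bgn at 2.10, is a lower bound, since Bgn was at the floor in regular medium. The mevalonate genes and the 9 enzymes after squalene have co-culture medians of -1.94 and -1.09, and among the lists plotted all but the MSC and fibroblast markers have a conditioned-medium median between -0.12 and 0.05.

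The measured genes closest to the median of the 9 were sought by Euclidean distance over the log2 differences of conditioned medium and co-culture from regular medium. The 5 nearest outside the 9 were Cmss1, Ddx11, a DNA helicase, Pclaf, a partner of the replication clamp PCNA, Vrk1, a nuclear kinase, and Suox, the sulfite oxidase. Their distances from that median were 0.0093 to 0.022. The members themselves lay 0.0069 to 1.29 from it, and 5582 measured genes lay within the largest of these member distances. Pclaf gave 8206 with regular medium, 8517 with conditioned medium and 3822 after co-culture. With 3 arrays the measure rests on 2 differences that share the regular-medium array, so it describes likeness on these arrays only.

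Promoter windows were found for 8 of the 9 genes, 10 windows in all since Dhcr7 has 3 annotated starts. CCAAT, on either strand, was in at least 1 window of all 8 genes, where 42.3% of 17491 protein-coding genes had it. GGGCGG, the Sp1 box, was likewise present in all 8, against 49.2% of those genes. CACGTG, the E-box, was in 3 of the 8, namely Hsd17b7, Sc5d and Dhcr7, against 8.91%. TCACNCCAC, a form of the SREBP element, was in none of the 10 windows and in 1.24% of all 32851 windows, which says only that these letters are not there. CCAAT was found in 37.4% of all windows and GGGCGG in 35.7%, and no match of these motifs overlapped another in the windows of the 8 genes. Ebp, with the smallest difference, held both CCAAT and GGGCGG, as did the genes with large ones.

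**Figure D5:**
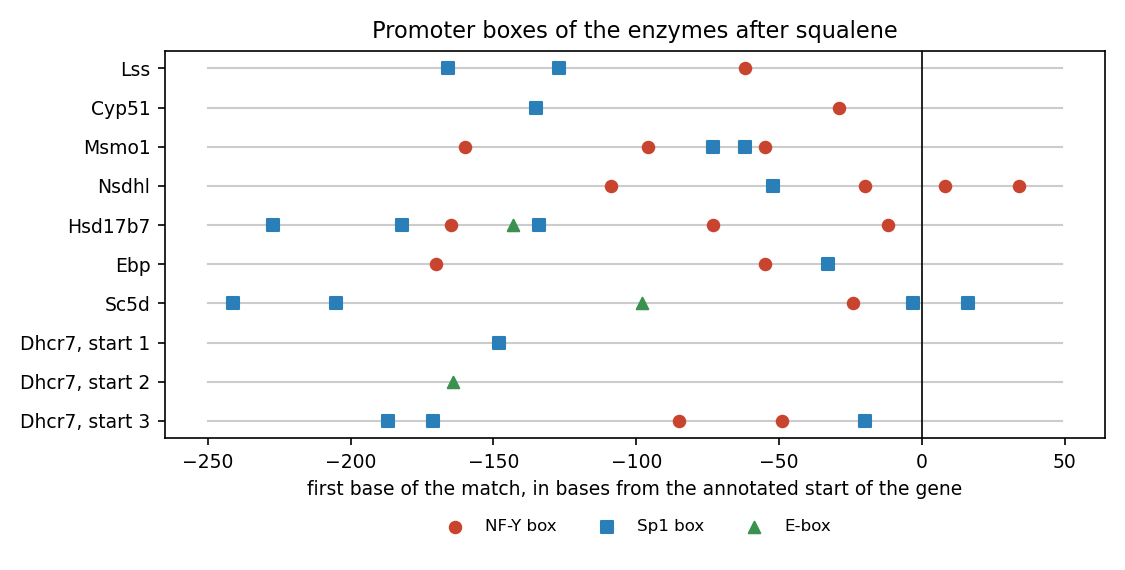
Positions of NF-Y boxes (circles), Sp1 boxes (squares) and E-boxes (triangles) in the 10 promoter windows of 8 genes, by the first base of each match in bases from the annotated start of the gene. Grey lines show the windows, and Dhcr7 has 3 annotated starts. Each gene has at least 1 NF-Y box, and in Dhcr7 only the third window holds it.

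Epithelial markers of the 4T1 line were bright on all arrays. The summed signal of Epcam, Cdh1, Krt8, Krt18, Krt19 and Cldn7 was 52414 on the regular-medium array, 54109 on the conditioned-medium array and 62969.7 on the co-culture array, so these genes were not lower where the sterol genes were. Of 11 MSC and fibroblast markers with values, 5 were measured, 2 of them (Postn and Bgn) at least 2-fold higher in co-culture, and their summed signal was 2051, 2344 and 4034 in the same order. Col1a1, Dcn, Thy1 and Pdgfrb were at or below the floor of 42.4 on all 3 arrays. Macrophage markers summed to 759.4, 738.6 and 826.9, with Ptprc and Itgam at the floor throughout, and endothelial markers to 334.4, 285.5 and 332.3, with Pecam1 at the floor throughout. The part of residual MSC RNA in the sterol gene values was not tested. In such bulk RNA, fewer cells that express a gene and less of its RNA per cell cannot be told apart.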

How the data were processed

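Biotin-labelled 4T1 RNA was read on Affymetrix Mouse Genome 430 2.0 arrays, 1 array for each of 3 conditions, per the labels' protocols. The deposited values are linear intensity values, made by the authors with MAS5 per the submitters' processing notes. The version of MAS5 and its target level are not given in these sources. No scaling was added, since the trimmed means of the arrays (2% off each end) were 497.8, 497.7 and 498.0 for regular medium, conditioned medium and co-culture. Equal trimmed means do not show that the arrays are alike throughout. Their medians were 79.8, 71.6 and 72.5 in the same order, with 38.0%, 41.4% and 40.7% of probe sets at the floor. Precision is limited by the number of arrays.

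Of 45037 probe sets, 34945 had 1 gene symbol, 932 several and 9160 none, and only those with 1 were named. The probe set of highest mean signal stood for a gene. Signals below 42.4, the pooled 40th percentile, were raised to that level, a floor and no detection call, ahead of the log2 step. Groups were taken from the labels. Probe sets ending in _s_at, _x_at or _a_at were left out in one alternative. Other alternatives changed the scaling, floor, minimum signal, choice of probe set and fold. The code that makes the calls was run before use on simulated data with an assumed noise. No planted fold lay at the 2-fold rule, so that run says nothing of members near it.

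The members and lists were chosen with earlier results of these data known. Named genes were all members, the other reductases after squalene, the 3 measured genes of largest difference between co-culture and regular medium in each further list of pathway genes (Srebf2, Mbtps1, Cyb5b and the markers Postn and Bgn, named after their values were seen, stand outside this rule), the epithelial markers as a list, other markers at the floor on all 3 arrays, and the 5 genes nearest to the members' median. Promoter windows came from RefSeq (GRCm38.p6), matched by symbol for 8 of 9 members. A planned comparison of protein sequences was not made. Scripts ran under Python 3.11.15 with pandas 2.3.3, NumPy 2.4.6, SciPy 1.17.1 and matplotlib 3.10.9.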

Additional observations from a re-analysis of the deposited data

How the results depend on the processing

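The 11 alternative settings left no member higher in any comparison and no sign reversed among differences of at least 2-fold. The count of the 9 enzymes at least 2-fold lower in co-culture than in regular medium was 6 as reported and ranged from 3 with a 3-fold rule to 8 with a 1.5-fold rule, and against conditioned medium it was 7 and likewise ranged from 3 to 8. The share of all measured genes called lower against regular medium was 0.617% with the 3-fold rule and 9.86% with the 1.5-fold rule. Against conditioned medium these shares were 0.599% and 9.95%. The median log2 difference of the 9 enzymes ranged from -1.13 to -0.95 for co-culture against regular medium, from -1.20 to -1.13 against conditioned medium, and from 0.04 to 0.20 for conditioned against regular medium. Scaling to the array median moved the median of all measured genes from 0.07 to 0.21 in co-culture against regular medium, and relative to it the median of the 9 was -1.17, in place of -1.16. That scaling also moved the share of calls that were higher from 67.8% to 82.7% in that comparison. Between conditioned and regular medium the share was 26.3% of 38 calls, 58.1% with that scaling, 37.5% with quantile normalization and 36.8% with probe sets averaged, and only 2 higher and 1 lower call were left with the floor at the 60th percentile, and 1 of each with the minimum at the 80th percentile. Leaving out probe sets ending in _s_at or _x_at, a setting added after the values were seen, kept the counts at 6 and 7, with Lss at -1.16 against conditioned medium. No paired analysis was possible because each group has 1 array. Without replicates or detection calls, differences near the span between probe sets of 1 gene cannot be resolved. Between co-culture and regular medium this covers Ebp by the median span of 0.50. By the 90th percentile span of 1.32 it also covers Sqle, Cyp51, Sc5d and Dhcr7. Differences beyond these spans have no replicate error either.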
